A study of Mus musculus with 4 samples.

Results

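Genes that move cholesterol out of cells, make oxysterols, carry lipid or coat lipid droplets were followed in mouse brain after stroke. They are Ch25h, Nr1h3, Abca1, Abcg1, Apoe, Apod, Lpl and Plin2, taken as every non-control probe whose gene name was one of these symbols or an older symbol of one. Plin2 is printed on the array under its older name Adfp. All 8 were found, on 9 probes, among 27670 gene names on the array, and all 8 were among the 19127 genes tested between occlusion and sham.

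Occluded mice had permanent middle cerebral artery occlusion (PMCAO), which models ischemic stroke by passing a nylon filament up the carotid artery until it blocks the middle cerebral artery. The sham mice were anesthetised and had their neck vessels exposed and the wound sutured. Both arms were male C57BL/6J mice, 8 to 12 weeks old, both received saline into a cerebral ventricle, and groups of 3 were killed 6 h or 24 h after that injection. Each time had 2 two-colour arrays, which carried PMCAO RNA in Cy5 and sham RNA in Cy3 on array 1, and the reverse on array 2. Per the design text the arrayed tissue was the hemisphere on the side away from the occlusion, while the labels of the samples give brain with no side. The labels number the arrays without saying whether arrays 1 and 2 hold separate RNA or how the RNA of 3 mice was combined. The p-values therefore reflect the spread between these arrays alone, and that spread may be technical.

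The share of spots well above background was 66.3% to 73.7% in PMCAO channels and 67.3% to 73.6% in sham channels. Across genes, which are no independent replicates, the ratios of array 1 and array 2 had a correlation of 0.582 at 6 h and 0.671 at 24 h. All tested markers of neurons (7), oligodendrocytes (6) and astrocytes (7) were well above background on both arrays of every RNA group. The number of arrays limits the precision of every value. A gene is said to pass the test, or to rise or fall, where its adjusted p in a linear model fitted with limma across all genes was under 0.05.

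Brain cells cannot break down the cholesterol ring, so surplus cholesterol is handed to lipoproteins, stored as ester in lipid droplets or converted to oxysterols. Oxysterols activate the liver X receptors, nuclear receptors that switch on the cholesterol exporters and Apoe. After brain injury, phagocytes that take up myelin and dying cells face a large cholesterol load, and Ch25h is best known as a gene of stimulated macrophages.

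The stretches before the start sites of Ch25h, Plin2 and Abca1 are shown because Ch25h and Plin2 gave the largest changes of the set, while Abca1 is the classical liver X receptor target. RefSeq (GRCm38.p6) gave windows of 300 bases for 6 of the 8 genes, and Abcg1 and Lpl had none. Each sequence below runs 5′ to 3′ in the direction of the gene, from 250 bases before the start site to 10 after it, and capitals mark the motif matches described next.
Ch25h, chr19:34475139-34475398, minus strand: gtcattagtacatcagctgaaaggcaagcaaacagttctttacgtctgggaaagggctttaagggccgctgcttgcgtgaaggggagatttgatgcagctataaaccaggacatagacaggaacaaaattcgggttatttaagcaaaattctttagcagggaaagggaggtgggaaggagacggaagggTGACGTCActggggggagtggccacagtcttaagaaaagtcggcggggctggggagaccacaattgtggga
Plin2, chr4:86670050-86670309, minus strand: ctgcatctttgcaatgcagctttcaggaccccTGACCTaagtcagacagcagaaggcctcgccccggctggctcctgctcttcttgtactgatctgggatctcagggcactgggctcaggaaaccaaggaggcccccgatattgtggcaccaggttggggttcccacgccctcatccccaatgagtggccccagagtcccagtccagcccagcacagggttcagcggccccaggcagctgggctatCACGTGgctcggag
Abca1, chr4:53159886-53160145, minus strand: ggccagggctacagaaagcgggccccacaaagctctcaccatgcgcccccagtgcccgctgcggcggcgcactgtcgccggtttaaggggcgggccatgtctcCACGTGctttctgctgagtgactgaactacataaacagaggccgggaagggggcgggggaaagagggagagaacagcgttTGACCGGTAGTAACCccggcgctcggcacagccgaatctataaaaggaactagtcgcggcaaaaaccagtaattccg

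Both strands of 32544 RefSeq windows of 300 bases were searched. The Ch25h window held the palindrome TGACGTCA, the consensus cyclic AMP response element, starting 61 bases before the start site. That motif was in 1.80% of all windows. The Plin2 window held the nuclear receptor half-site AGGTCA, read here on the other strand as TGACCT, 218 bases before the start site, and 16.2% of all windows held it. CACGTG, an E-box, began 4 bases before the start site of Plin2 and 147 before that of Abca1, and was in 7.17% of all windows. Abca1 also held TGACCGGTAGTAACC from 67 bases before its start site, a match on the other strand to a loose form of the direct repeat bound by liver X receptors, in which GGTNA is followed by 5 free bases and GGTNA again. That form was in 0.719% of windows. The strict repeat of AGGTCA with 4 free bases between (0.0154% of windows) and the same repeat of AGNTCA (0.126%) were in none of the 9 windows of these genes. The same held for the interferon element, GAAA repeated after 2 free bases (3.45%), and the AP-1 motif TGANTCA (7.79%), and the Apod window held none of the motifs. TGACGTCA, CACGTG and the loose repeat of GGTNA were added to the search after the windows had been read. A match describes letters only.

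Ch25h, which encodes an enzyme that turns cholesterol into an oxysterol, was higher in PMCAO than in sham at both times and passed the test at each. Its probe lies at chr19:34175232-34175291 on the minus strand (mm7, the build of the array files, for which no exon annotation was used here). At 6 h its log2 normalised intensity was 10.90 and 10.86 in the PMCAO channels, against 9.77 and 9.58 in the sham channels. At 24 h it was 11.64 and 11.53 in PMCAO and 8.38 and 8.26 in sham. No PMCAO value overlapped a sham value at either time, and the gap was wider at 24 h. The ratio of PMCAO over sham on the log2 scale was 1.13 and 1.28 on the arrays of 6 h, with a mean of 1.20 ± 0.09 (SE, n = 2 arrays, limma adjusted p = 0.00835), a 2.30-fold difference. At 24 h it was 3.26 and 3.27, with a mean of 3.27 ± 0.09 (SE, n = 2 arrays, limma adjusted p = 0.000172), a 9.63-fold difference that ranked 23 of 19127 genes. In RNA of whole tissue, more or fewer cells of a type and more or less RNA per cell cannot be told apart.

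Ch25h passed in both arms between the times, in opposite directions. In the PMCAO arm Ch25h rose by 0.70 ± 0.10 between the times (log2, 24 h over 6 h, limma separate-channel adjusted p = 0.00272). In the sham arm it fell by 1.36 on the log2 scale (SE 0.10, adjusted p = 0.00181 in the same limma fit), 2.57-fold lower at 24 h than at 6 h, and ranked 19110 of 19117 genes. The 24 h minus 6 h difference of the PMCAO over sham ratio was 2.06 ± 0.12 (log2, limma adjusted p = 0.00488). Without normalisation between arrays the sham fall was 1.16 on the log2 scale with an adjusted p of 0.289 in limma, and the PMCAO rise was 0.90 with an adjusted p of 0.0901. The 4 RNA groups were ordered PMCAO at 24 h, PMCAO at 6 h, sham at 6 h and sham at 24 h, and no neighbours in this order overlapped.

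**Figure D1:**
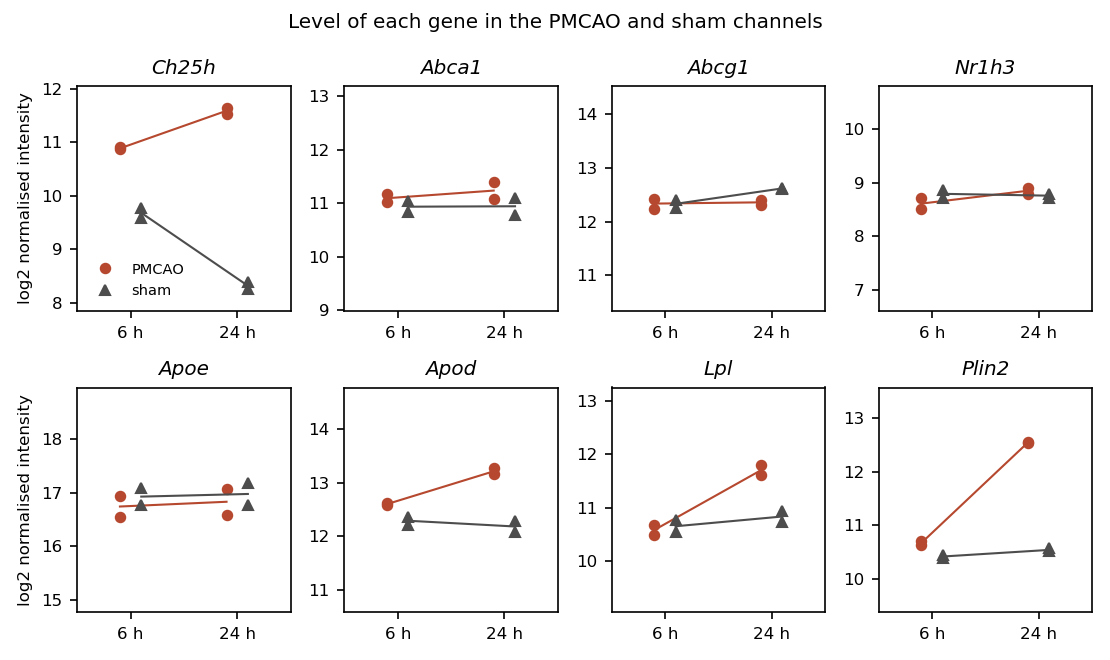
Log2 normalised intensity (y axis) of each gene in the PMCAO (circles) and sham (triangles) channels at 6 h and 24 h (x axis), with 1 point per array and lines joining the means of 2 arrays. Every panel spans the same number of log2 units, and levels of different probes cannot be set against each other. The Ch25h means differ between the times by 0.70 upward in PMCAO and by 1.36 downward in sham, and those of Plin2 by 1.88 and 0.12 upward.

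Nr1h3, the liver X receptor alpha that senses oxysterols, did not pass the test in any comparison. Its log2 intensity was 8.72 and 8.51 in PMCAO against 8.72 and 8.87 in sham at 6 h, and 8.91 and 8.79 in PMCAO against 8.72 and 8.80 in sham at 24 h. At 6 h PMCAO lay just below sham, with the nearest values at 8.716 and 8.720, and at 24 h the arms overlapped. The log2 ratio was -0.18 ± 0.12 at 6 h (95% confidence interval -0.47 to 0.11) and 0.09 ± 0.12 at 24 h (-0.20 to 0.38; SE, n = 2 arrays each). These intervals leave room for a modest change in either direction. Its probe is at chr2:91034994-91035053 on the minus strand (mm7).

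The exporters Abca1, which loads cholesterol onto lipid-poor apolipoproteins, and Abcg1, which passes it on to larger particles, did not pass either. In an alternative fit with a term for array number, which is also the dye orientation, Abca1 passed upward and Abcg1 downward at 24 h. The labels do not otherwise pair the arrays of the 2 times. Abca1 (mm7 chr4:53044891-53044950, minus strand) had log2 intensities of 11.17 and 11.02 in PMCAO and 10.83 and 11.04 in sham at 6 h. At 24 h they were 11.39 and 11.08 in PMCAO and 10.79 and 11.10 in sham, so that the arms overlapped at both times. Its log2 ratio was higher on the array with PMCAO in Cy5 at both times. It was 0.34 on array 1 and -0.02 on array 2 at 6 h, and 0.61 and -0.02 at 24 h. The mean was 0.16 ± 0.17 at 6 h and 0.29 ± 0.17 at 24 h (SE, n = 2 arrays, limma adjusted p = 0.335 at 24 h, 95% confidence interval -0.14 to 0.72). With array 2 of 24 h left out, only the array with PMCAO in Cy5 remained and the ratio was 0.61 (limma adjusted p = 0.000426).

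Abcg1 (mm7 chr17:29310847-29310906, plus strand) had log2 intensities of 12.24 and 12.43 in PMCAO and 12.41 and 12.25 in sham at 6 h. At 24 h they were 12.31 and 12.41 in PMCAO and 12.62 on both sham arrays. The arms overlapped at 6 h and lay apart at 24 h, with PMCAO below sham. The log2 ratio at 24 h was -0.26 ± 0.11 (SE, n = 2 arrays, limma adjusted p = 0.195), and its confidence interval of -0.54 to 0.02 reached 0. The sham arm was 0.29 ± 0.09 higher at 24 h than at 6 h (log2, limma adjusted p = 0.11), against 0.02 ± 0.09 in the PMCAO arm.

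Of the carriers, Apod passed at 24 h and Apoe did not. Apoe, the main apolipoprotein of the brain, was read on 10 spots of 1 probe (mm7 chr7:17378757-17378816, minus strand). Its log2 intensity was 16.93 and 16.55 in PMCAO and 16.77 and 17.08 in sham at 6 h, and 17.08 and 16.59 in PMCAO and 16.78 and 17.18 in sham at 24 h. On all 4 arrays the Cy5 channel read higher, whichever arm it held, and the arms overlapped. The log2 ratio was -0.18 ± 0.25 at 6 h and -0.15 ± 0.25 at 24 h (SE, n = 2 arrays, limma adjusted p = 0.764 at 24 h). The 24 h interval of -0.78 to 0.49 was the widest of the 8 genes at that time. With array 1 of 24 h left out, only the array with PMCAO in Cy3 remained and the ratio was -0.59 (limma adjusted p = 0.000842).

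Apod, a lipocalin that carries arachidonic acid and other small lipids, rose at 24 h. Its log2 intensity was 12.59 and 12.62 in PMCAO and 12.37 and 12.22 in sham at 6 h, and 13.16 and 13.27 in PMCAO and 12.28 and 12.09 in sham at 24 h. The arms did not overlap at either time. The log2 ratio was 0.22 and 0.40 on the arrays of 6 h, with a mean of 0.31 ± 0.11 (SE, n = 2 arrays, limma adjusted p = 0.479, or 0.0293 with 6 h fitted alone). At 24 h it was 0.88 and 1.18, with a mean of 1.03 ± 0.11 (SE, n = 2 arrays, limma adjusted p = 0.00504), a 2.04-fold difference. In the PMCAO arm it rose by 0.61 ± 0.09 between the times (log2, limma adjusted p = 0.00282), or by 0.82 with an adjusted p of 0.141 in limma without normalisation between arrays, while the sham arm gave -0.11 ± 0.09. The array files place its probe at chr16:30974888-30977873 on the minus strand (mm7), which is 2926 bases longer than the 60-base probe.

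Lpl encodes lipoprotein lipase, which frees fatty acids from the triglycerides of lipoproteins. It also rose at 24 h. Its log2 intensity was 10.67 and 10.50 in PMCAO and 10.54 and 10.76 in sham at 6 h, and 11.79 and 11.60 in PMCAO and 10.73 and 10.94 in sham at 24 h. The arms overlapped at 6 h and lay apart at 24 h. The log2 ratio was 0.12 and -0.27 at 6 h, with a mean of -0.07 ± 0.14. At 24 h it was 1.06 and 0.66, with a mean of 0.86 ± 0.14 (SE, n = 2 arrays, limma adjusted p = 0.0196), a 1.82-fold difference. At both times the ratio was higher on the array with PMCAO in Cy5. A second, dimmer Lpl probe gave 0.01 and 0.02 at 6 h and 0.81 and 0.75 at 24 h, so both probes read higher in PMCAO at 24 h. The brighter probe is at chr8:67361126-67361185 and the dimmer at chr8:67355909-67355968, both on the plus strand (mm7), with starts 5217 bases apart. In the PMCAO arm Lpl rose by 1.12 ± 0.10 between the times (log2, limma adjusted p = 0.000373), or by 1.33 with an adjusted p of 0.0809 in limma without normalisation between arrays, and in the sham arm the value was 0.18 ± 0.10 (adjusted p = 0.366).

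Plin2, whose protein coats lipid droplets and shields their contents from lipases, gave the second-largest ratio of the set at 24 h. Its log2 intensity was 10.71 and 10.62 in PMCAO and 10.44 and 10.39 in sham at 6 h. At 24 h it was 12.54 and 12.55 in PMCAO and 10.51 and 10.57 in sham. The arms were close at 6 h and far apart at 24 h, and the arrays of a time lay within 0.1 log2 units of each other in each arm. The log2 ratio was 0.27 and 0.24 at 6 h, with a mean of 0.25 ± 0.08 (SE, n = 2 arrays, limma adjusted p = 0.401). At 24 h it was 2.03 and 1.99, with a mean of 2.01 ± 0.08 (SE, n = 2 arrays, limma adjusted p = 0.000223), a 4.02-fold difference that ranked 106 of 19127. The difference between the times was 1.75 ± 0.11 (log2, limma adjusted p = 0.00656). Within the arms, PMCAO rose by 1.88 ± 0.07 between the times (log2, limma adjusted p = 8.24e-06), and the sham arm gave 0.12 ± 0.07 (adjusted p = 0.381). Its probe is at chr4:86060498-86060557 on the minus strand (mm7).

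**Figure D2:**
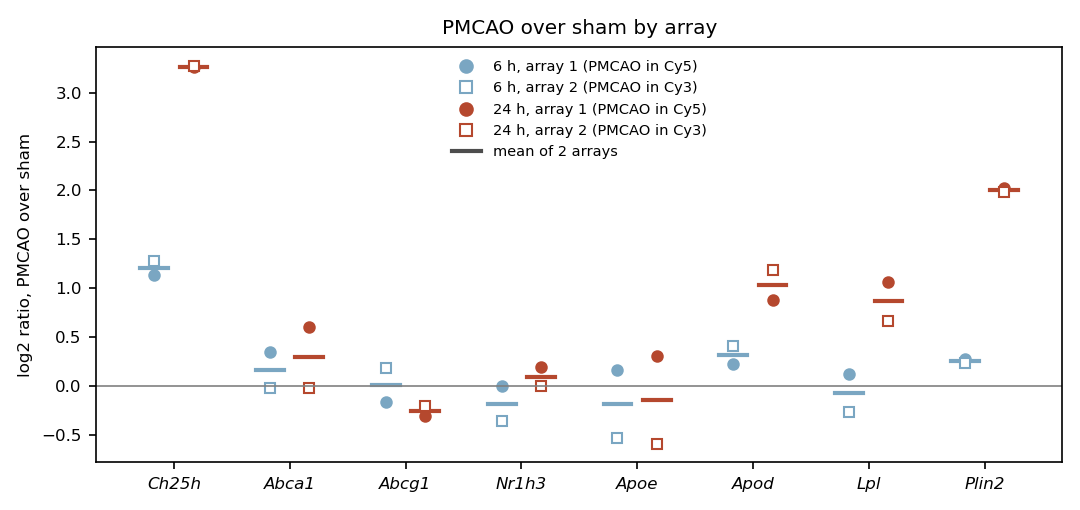
Log2 ratio of PMCAO over sham (y axis) for each gene (x axis), with blue for 6 h and red for 24 h, filled circles for array 1 (PMCAO in Cy5), open squares for array 2 (PMCAO in Cy3) and bars for the mean of 2 arrays. Ch25h and Plin2 at 24 h stand at 3.27 and 2.01 with their arrays nearly on top of each other. Of the other genes, Abca1, Apoe, Lpl and Nr1h3 read higher on array 1 at both times, and Apod and Abcg1 on array 2.

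Counted over the set, 1 of the 8 genes rose at 6 h and none fell, where 0.816% of all genes tested rose, 0.0366% fell and 0.852% passed in either direction. At 24 h 4 of the 8 rose (Ch25h, Plin2, Apod and Lpl) and none passed downward, where 7.84% of all genes rose, 4.52% fell and 12.4% passed in either direction. An unadjusted p under 0.05 was reached by 3 of the 8 at 6 h and by 4 at 24 h. Of all 19127 genes tested, 1673 reached it at 6 h and 5505 at 24 h. The median log2 ratio of the 8 was 0.08 at 6 h and 0.58 at 24 h, beside medians of -0.005 and 0.0008 over all genes tested. The 24 h minus 6 h difference passed for 2 (Ch25h and Plin2), and none passed downward, where 1.3% of all genes passed upward, 0.298% downward and 1.59% in either direction. For Lpl and Apod it was 0.93 ± 0.20 and 0.72 ± 0.16 on the log2 scale (limma adjusted p = 0.109 for each). With array 1 of 24 h left out these were 0.73 and 0.87 (limma adjusted p = 0.00077 and 3.93e-05), and with array 2 of 24 h left out 1.13 and 0.57 (2.2e-07 and 0.0142), so both then passed. With median centring in place of loess, none of the 8 passed in these comparisons, at log2 ratios of 3.16 for Ch25h and 1.85 for Plin2 at 24 h.

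Within the sham arm Ch25h was the one gene of the 8 to pass. Between 6 h and 24 h, 1 of the 8 fell in the sham arm and none rose, where 1.72% of all genes fell, 1.9% rose and 3.63% passed in either direction. In the PMCAO arm 4 rose (Ch25h, Plin2, Lpl and Apod) and none fell, where 11% of all genes rose, 9.42% fell and 20.4% passed in either direction. Without normalisation between arrays Plin2 alone of the 8 passed in the PMCAO arm, and none passed in the sham arm. The median log2 ratio of the 8, 24 h over 6 h, was 0.43 in the PMCAO arm and 0.03 in the sham arm, beside -0.0007 and -0.0099 over all genes tested. Nr1h3 gave 0.24 ± 0.09 in the PMCAO arm (log2, limma adjusted p = 0.0939). These arm comparisons share arrays with the ratios above and add no separate samples.

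**Figure D3:**
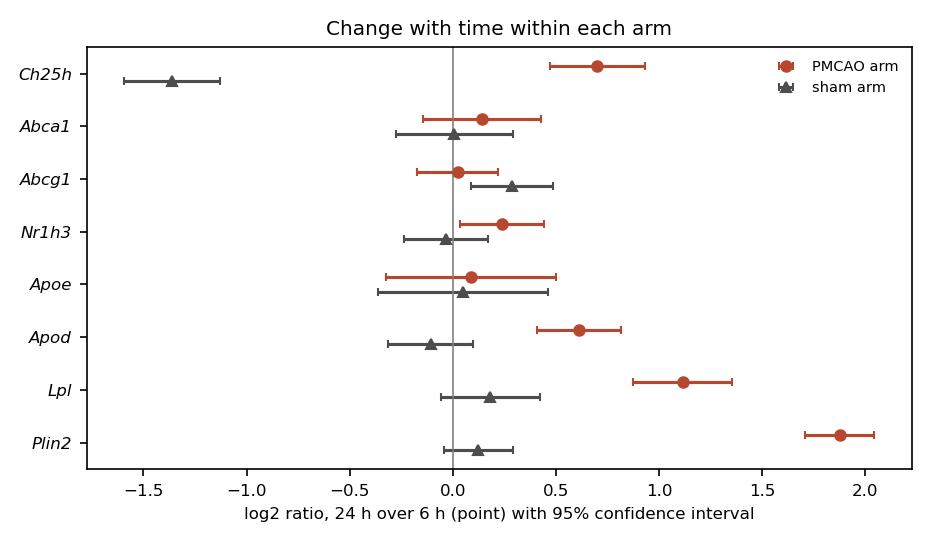
Log2 ratio of 24 h over 6 h (x axis) for each gene (y axis) in the PMCAO arm (red circles) and the sham arm (grey triangles), with 95% confidence intervals from the separate-channel fit. All 8 genes lie right of 0 in the PMCAO arm, with the intervals of Plin2, Lpl, Ch25h, Apod and Nr1h3 clear of 0, while in the sham arm the interval of Ch25h lies left of 0 and that of Abcg1 right of 0 (Nr1h3 and Abcg1 did not pass the adjusted test).

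Most markers of neutrophils and of macrophages and monocytes rose at 24 h, while some microglial markers fell. The marker counts at 24 h stand beside the 7.84% of all genes that rose and the 4.52% that fell, and those at 6 h beside 0.816% and 0.0366%. All 7 tested neutrophil markers rose at 24 h, and their summed normalised intensity ranged from 63324 to 74444 in PMCAO against 1599 to 1776 in sham. At 6 h that sum was 12428 to 13487 in PMCAO against 2486 to 2836 in sham, and 3 of the 7 rose. Cxcr2, Ngp and Mmp8 were not well above background in sham at either time, so that they entered the test only through PMCAO, where they were high. Ngp entered through PMCAO at 24 h alone. Of 8 tested macrophage and monocyte markers, 6 rose at 24 h, with summed intensity of 18730 to 18847 in PMCAO against 8028 to 9089 in sham, and none passed at 6 h. Arg1, one of these 6, was well above background on 0 arrays of PMCAO and of sham at 6 h and on 1 of sham at 24 h, so that it entered the test only through PMCAO at 24 h. Of 8 microglial markers, 4 fell at 24 h (P2ry12, Gpr34, Siglech and Tmem119), with 28470 to 31076 in PMCAO against 33881 to 36331 in sham. None of the 7 neuronal markers passed at 24 h, with sums of 191915 to 192024 in PMCAO against 212166 to 217334 in sham. Among other markers at 24 h, 2 of 7 for astrocytes rose, 3 of 7 for endothelium rose and 1 fell, 1 of 2 for red blood cells rose, and none of 6 for oligodendrocytes or 4 for choroid plexus passed. The part of these cells in the changes of Ch25h, Plin2, Lpl and Apod was not tested.

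The genes whose ratios over the 4 arrays lay nearest to each changed gene were found by Euclidean distance in log2 units. Nearest to Ch25h were Lcn2 at 0.442, Adam8 at 0.506 and Clec4d at 0.577. Plin2 was nearest to Ppbp at 0.153, Glipr2 at 0.190 and Igfbp3 at 0.223. Lpl lay closest to Lcp2 at 0.156, Naip2 at 0.178 and Oas1c at 0.187, and Apod to Ier2 at 0.102, Lrrc8a at 0.125 and Fstl1 at 0.126.

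Among the other perilipins and droplet enzymes, Plin4, Hilpda and Pnpla2 gave the largest rises at 24 h. The counts of this and the next lists stand beside the shares of all genes tested, of which 7.84% rose and 4.52% fell at 24 h, and 0.816% rose and 0.0366% fell at 6 h. Of 22 tested genes that coat, build or break down lipid droplets, 6 rose at 24 h and none fell, and the median log2 ratio was 0.19. Plin4, a perilipin known from fat cells and muscle, had log2 ratios of 2.75 and 2.65 on the arrays of 24 h, with a mean of 2.70 ± 0.09 (SE, n = 2 arrays, limma adjusted p = 0.000201). Hilpda, a hypoxia-induced droplet protein that inhibits triglyceride lipase, had 1.09 and 1.33, with a mean of 1.21 ± 0.10 (adjusted p = 0.00233 in limma). Pnpla2, which encodes that adipose triglyceride lipase, had 1.16 and 0.95, with a mean of 1.05 ± 0.09 (adjusted p = 0.00279 in limma). Plin5, which tethers droplets to mitochondria, stood at 0.71 ± 0.10, the acyltransferase Agpat2 at 0.49 ± 0.10 and Cidea at 0.42 ± 0.08. Agpat2 and Cidea each passed under 7 of 13 alternative settings. With 24 h fitted alone, the same fit as with either array of 6 h left out, the adjusted p in limma was 0.0507 for Agpat2 and 0.0945 for Cidea.

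None of these 22 passed at 6 h, where 7 had an unadjusted p under 0.05 and the median was 0.05. Of all 19127 genes tested, 1673 had such a p at 6 h, and the unadjusted counts of the next lists stand beside the same number. Plin5 (0.66 ± 0.10, limma adjusted p = 0.0744) and Plin4 (0.58 ± 0.09, limma adjusted p = 0.0698) were nearest to passing at 6 h. Between the times, Plin4 passed in sham and not in PMCAO. It fell by 1.96 on the log2 scale in sham between 6 h and 24 h (SE 0.07, limma adjusted p = 3.79e-05), and its PMCAO arm gave 0.15 ± 0.07 (adjusted p = 0.169). Pnpla2 likewise fell in sham, by 0.52 on the log2 scale (adjusted p = 0.0175 in limma, or 0.181 and 0.194 with array 1 or array 2 of 6 h left out). Without normalisation between arrays neither passed in sham, at log2 ratios of -1.75 for Plin4 and -0.30 for Pnpla2 (limma adjusted p = 0.1 and 0.721). Plin3, the broadly expressed perilipin, gave 0.19 ± 0.08 at 24 h (limma adjusted p = 0.193).

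Angptl4 and Apoc2, which act on lipoprotein lipase, rose. Of 18 genes that control the lipase or take up fatty acids, 1 rose at 6 h, and 4 rose and 1 fell at 24 h, with medians of 0.04 and 0.11. Angptl4, a secreted inhibitor of lipoprotein lipase, had log2 ratios of 1.69 and 1.33 at 6 h (mean 1.51 ± 0.14, SE, n = 2 arrays, limma adjusted p = 0.0178, or 0.0542 on the deposited log ratio). At 24 h they were 3.08 and 2.64 (mean 2.86 ± 0.14, SE, n = 2 arrays, limma adjusted p = 0.000451). Apoc2, the obligatory activator of the lipase, had 0.91 and 0.87 at 24 h (mean 0.89 ± 0.08, limma adjusted p = 0.00329). The lipase, its activator and its inhibitor were all higher in PMCAO at 24 h.

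The scavenger receptor gene Msr1 had log2 ratios of 2.01 and 2.35 at 24 h (mean 2.18 ± 0.12, limma adjusted p = 0.000635), with its 3 probes between 1.41 and 2.18. Msr1 also stands in the macrophage list. The brightest probe of Fabp4, a fatty acid binding protein of macrophages and fat cells, gave 1.67 ± 0.10 at 24 h (limma adjusted p = 0.000721), while the lowest of its 3 probes gave 0.04. Fabp3 fell by 0.34 on the log2 scale (SE 0.08, limma adjusted p = 0.0485), and passed under 4 of 13 alternative settings. Cd36, a fatty acid translocase, gave 0.30 ± 0.10 at 24 h (limma adjusted p = 0.119). Gpihbp1, which anchors the lipase to capillaries, gave 0.01 ± 0.08. Furin, a protease that can cleave the lipase, and Fabp7, a fatty acid binding protein of glia, gave 0.34 ± 0.10 and 0.35 ± 0.13 at 6 h (limma adjusted p = 0.33 and 0.493).

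Hsd3b7 and Insig1 were the genes past the test among enzymes and sensors of oxysterols other than Ch25h. Of 11 tested, 2 rose at 24 h and none passed at 6 h, where 2 had an unadjusted p under 0.05, and the medians were -0.03 at 6 h and 0.05 at 24 h. Hsd3b7, a steroid dehydrogenase of bile acid synthesis, stood at 0.68 ± 0.08 at 24 h (log2, limma adjusted p = 0.00687). Insig1, which holds the sterol sensor Scap in the endoplasmic reticulum, stood at 0.65 ± 0.08 (log2, limma adjusted p = 0.00797). Gpr183, a receptor on immune cells for oxysterols made from the product of Ch25h, gave 0.36 ± 0.08 (limma adjusted p = 0.0531). Cyp7b1, which makes the ligands of Gpr183, gave 0.05 ± 0.08, and the neuronal cholesterol hydroxylase Cyp46a1 gave 0.13 ± 0.29.

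Genes of sterol transport and of the liver X receptor were mostly below the threshold. Of 20 tested transport genes, none passed at 6 h (3 with an unadjusted p under 0.05) and 3 rose at 24 h, with medians of 0.01 and 0.13. They include Stard4, a cytosolic sterol carrier (0.89 ± 0.18, limma adjusted p = 0.0349), and Soat1, which esterifies cholesterol for storage (0.41 ± 0.09, limma adjusted p = 0.039). Probes of Stard4 disagreed in size, with a range at 24 h of 0.42 to 0.89, and those of Soat1 in direction, with a range of -0.15 to 0.41. Of 13 alternative settings, Soat1 passed under 5 and Stard4 under 10. Scarb1, a lipoprotein receptor that exchanges cholesterol with particles, gave 0.41 ± 0.10 at 6 h (limma adjusted p = 0.235). The lysosomal lipase gene Lipa gave -0.24 ± 0.10 at 6 h, and the lipoprotein receptor gene Vldlr gave -0.26 ± 0.08 at 24 h (limma adjusted p = 0.6 and 0.104).

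Among 20 partners and other targets of the liver X receptors, none passed at 6 h (1 with an unadjusted p under 0.05) and 1 fell at 24 h, a share near that of all genes, with medians of -0.06 and 0.07. The gene that fell was Rxrg, a retinoid X receptor that pairs with nuclear receptors including the liver X receptors. Its log2 ratios at 24 h were -1.68 and -1.42 (mean -1.55 ± 0.11, SE, n = 2 arrays, limma adjusted p = 0.00108). Between 6 h and 24 h Rxrg gave -0.58 ± 0.08 in the PMCAO arm and 0.44 ± 0.08 in the sham arm (log2, limma adjusted p = 0.0022 and 0.0296). These passed under 9 and 6 of 10 alternative settings. The PMCAO over sham ratio of the more widely expressed Rxra was 0.20 ± 0.08 at 24 h (log2, limma adjusted p = 0.174). The classical targets Srebf1 and Scd1 gave -0.10 ± 0.09 and 0.30 ± 0.09 at 24 h (limma adjusted p = 0.553 and 0.0951), and the second receptor Nr1h2 gave 0.15 ± 0.14. Pltp, the phospholipid transfer protein gene, gave -0.53 ± 0.18 at 24 h (limma adjusted p = 0.121).

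**Figure D4:**
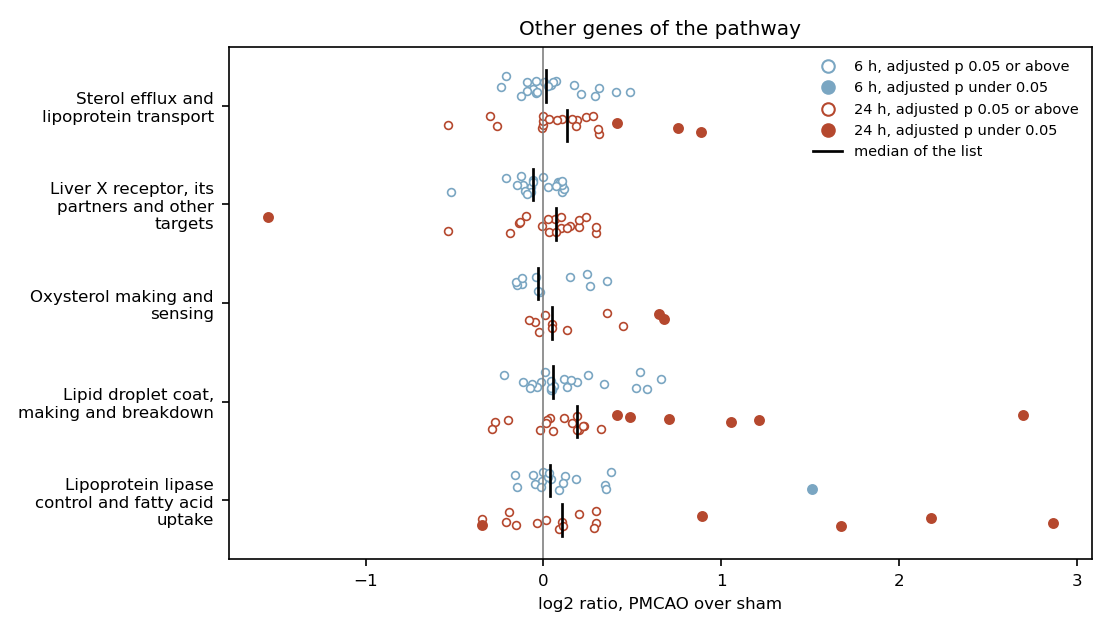
Log2 ratio of PMCAO over sham (x axis) for the genes of 5 related lists (y axis) at 6 h (blue) and 24 h (red), filled where the adjusted p was under 0.05, with a black bar at the median of each list. The 24 h points past the test lie furthest right for Angptl4 at 2.86, Plin4 at 2.70 and Msr1 at 2.18, and furthest left for Rxrg at -1.55.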

How the data were processed

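PMCAO and sham RNA was read on 4 two-colour arrays of 1 slide with 1 scan time. Per the file headers, the deposited scanner tables hold spot intensity values (mean signal, background median, processed signal) and the log10 of their Cy5 over Cy3 ratio. The submitters' processing notes name Agilent Feature Extraction 9.5.3.1. The deposited series table holds 1 further score per probe. In size, 100% of its values on each array matched Cy5 divided by Cy3 processed signal (within 0.01 plus a relative 0.005). Its column medians were -0.96 and 0.96 at 6 h and -0.91 and 0.95 at 24 h. On the arrays with PMCAO in Cy5 100% of its values were negative, and on those with PMCAO in Cy3 none were, so the sign followed the dye orientation. Within the stated tolerance its size was not centred further. What the sign was meant to convey stayed unknown.

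Intensities were corrected with normexp (offset 50) and normalised by loess within arrays in limma 3.58.1 under R 4.3.3, control spots having weight 0. The 112 to 142 spots per array marked as outliers were dropped. Ratios were turned to PMCAO over sham and averaged over the spots of a probe, and each gene was read from its brightest probe. Testing needed that probe to be well above background, in 1 or more of the 4 RNA groups, on both of the group's arrays. Of 41174 probes, 22951 were named through an accession in a RefSeq table, 6659 through a symbol, 3109 through an older symbol and 8455 by the name in the files. A fit of all 4 arrays gave 1 log2 ratio per time with 2 residual and 3.53 prior degrees of freedom. Arms were compared over time by separate-channel analysis after Aquantile normalisation, with an intraspot correlation of -0.418 and 19117 genes tested. Benjamini-Hochberg adjustment ran over all genes tested, with a threshold of 0.05. The fits were tested on simulated data.

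The genes, the related lists and the tests were chosen with earlier results of these data known. Of each related list, the 4 genes with the smallest p at 6 h and at 24 h were named, and 3 nearest genes for each changed member. Of the genes this rule chose, 3 are not reported here. Other genes named beside a list's count were chosen after their values were seen. Of the related lists, Apoa1, Apob, Cyp7a1, Cidec and Fitm1 were not tested, and Mylip, Pltp, Abcg4 and Apoc1 stood in 2 lists each.

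Alternatives were median centring, the deposited log10 ratio, the series table, normexp offset 10, other filters, the mean of all probes, a replicate block, each time alone, other normalisation between arrays, and leaving out each array. Figures were drawn with matplotlib 3.10.9 under Python 3.11.15.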

Additional observations from a re-analysis of the deposited data

Results flagged for a closer look

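The response of 2 genes to occlusion differed between 6 h and 24 h by a test of the difference itself. For Ch25h the log2 ratio of PMCAO over sham was 2.06 higher at 24 h than at 6 h (SE 0.12, limma adjusted p = 0.00488), and both arrays of 24 h lay above both arrays of 6 h. For Plin2 the same difference was 1.75 (SE 0.11, limma adjusted p = 0.00656), again with both arrays of 24 h above both of 6 h. Over the same interval Ch25h gave 0.70 in the PMCAO arm and -1.36 in the sham arm (log2, 24 h over 6 h), and Plin2 gave 1.88 in PMCAO and 0.12 in sham.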

How the results depend on the processing

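With median centring in place of loess, 0, 13 and 0 genes passed at 6 h, at 24 h and for their difference, against 163, 2363 and 305, and 0 of the 8 passed in each. The log2 ratios then were 3.16 for Ch25h (limma adjusted p = 0.0742), 1.85 for Plin2, 0.86 for Apod and 0.71 for Lpl at 24 h. The median of all genes moved to -0.104 for the difference. The deposited log ratio gave 246 genes at 6 h and 62 for the difference, while 249 and 58 passed on the values of the series table. A filter on all channels gave 178 for the difference. Each time alone gave 1308 genes at 6 h with 2 of the 8 higher (Apod added, limma adjusted p = 0.0293). Without normalisation between arrays 0 genes passed in sham against 693, with 0 of the 8 lower, and 124 in PMCAO against 3906, with 1 of the 8 higher (Plin2). On processed signals Nr1h3 also passed in PMCAO (limma adjusted p = 0.0456).

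The array number is also the dye orientation, and the labels do not pair arrays by it. Deviations of same-numbered arrays correlated at 0.718. With the number as a replicate block 1722, 7612 and 3234 genes passed at 6 h, 24 h and for the difference. Of the 8, 3 were higher at 6 h (Apod and Plin2 added). At 24 h 5 were higher, with Abca1 added (limma adjusted p = 0.00928), and 1 was lower (Abcg1, limma adjusted p = 0.0155), and 4 were higher in the difference (Apod and Lpl added). The block gave 2 genes in sham (Ch25h and Plin4) and 999 in PMCAO over time, and Pnpla2 in sham then had an adjusted p of 0.278 in limma.

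With each array left out in turn, the genes past the test ranged from 75 to 1308 at 6 h, 1837 to 5786 at 24 h, 181 to 2944 for the difference, 96 to 1409 in sham and 1078 to 4121 in PMCAO. Members higher ranged from 1 to 2 at 6 h, from 4 to 5 at 24 h (Abca1 added without array 2 of 24 h) and from 2 to 4 for the difference, and members lower at 24 h from 0 to 1 (Apoe, without array 1 of 24 h). The higher counts at 6 h and for the difference came without array 1 or array 2 of 24 h (Apod at 6 h, Apod and Lpl for the difference). An array left out leaves 1 dye orientation at its time, and that lone array is assumed to vary like the others. For PMCAO over sham at the other time, this is the same fit as that time alone, so these are no separate checks. Ch25h and Plin2 at 24 h kept their side of the threshold under every alternative other than median centring. No member that passed in the reported comparison changed sign under any alternative, and none that passed under an alternative had the opposite sign to its reported value. Members that did not pass in the reported comparison did change sign, such as Apoe at 24 h, which ranged from -0.59 to 0.30 on the log2 scale with each array left out, and the Abca1 difference, which ranged from -0.18 to 0.45. The cause of these shifts was not tested.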
